A study of Mus musculus with 8 samples.

Results

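The regions described here are 454 stretches of intergenic mouse chromatin that carried a phospho-CREB1 peak in both muscle libraries of CTRL mice and in neither library of C26 mice. They were chosen by the presence of peaks, out of 17607 regions obtained by joining the peaks of the 4 phospho-CREB1 libraries wherever they overlapped by 1 bp or more. A region was kept when no peak summit in it lay within 1000 bp of either end of a protein-coding gene and when its strongest CTRL replicate 2 summit lay outside all protein-coding gene spans. In all, 8972 regions had a peak in both CTRL libraries, and 2761 of them, 30.8%, had none in either C26 library; the 454 are the intergenic share of those 2761. Having CTRL peaks and lacking C26 peaks is therefore what defines them and is not a result.

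The mice labelled C26 were male Balb/c animals injected under the skin of the flank at 2 months of age with C26 cells, a mouse colon adenocarcinoma line that causes muscle wasting. CTRL mice were the controls; their samples carry the same protocol text, which gives that age, sex and strain for the injected mice and describes no injection of controls. The series held 2 phospho-CREB1 chromatin immunoprecipitation libraries of C26 muscle, 2 of CTRL muscle and 4 input libraries of chromatin not precipitated. The labels name the tissue gastrocnemius and the protocol names quadriceps, so it is called muscle below. The protocol also says that tumor-bearing animals received rolipram, which inhibits the breakdown of cAMP, or its vehicle, leaving unstated what the C26 mice used for chromatin were given. The antibody appears in that text as either CREB or phospho-CREB1, while the labels of all 4 precipitated libraries say phospho-CREB1.

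CREB1 is a transcription factor that binds the cAMP response element, a palindromic DNA motif, and is phosphorylated by protein kinase A and other kinases when cAMP or calcium signals rise. The phosphorylated form recruits the coactivators CBP and p300. Much CREB1 binding is at promoters, but sites away from genes can be enhancers, promoters of long non-coding RNAs (lncRNAs), or other regulatory DNA.

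The letters under some of these regions can be read where a region covers the promoter window of an annotated transcript, taken from RefSeq (GRCm38.p6) as the 250 bases before and 50 bases from a transcription start. Of the 440 regions on chromosomes in the window table, 38 (8.64%) covered at least 1 window, and these were 42 windows of 40 genes, all lncRNAs. The rule itself largely leaves out windows of protein-coding genes, because it drops regions with a summit within 1000 bp of their ends. Among the 558 intergenic regions that had peaks in both CTRL libraries and in at least 1 C26 library, 75 of 547 (13.7%) covered a window. Windows were at hand for 9533 lncRNA genes, while 12727 are annotated, so regions may cover transcript starts not counted here. The windows below are from the strongest such region, the next strongest, a weaker one that also holds the core of the motif, and the one at the start of the host transcript of the muscle microRNA Mir1a-1. Capitals mark TGACG, the core of the cAMP response element, read on either strand (CGTCA is the same core on the other strand).
2310034G01Rik, chr19:46348939-46349238, minus strand: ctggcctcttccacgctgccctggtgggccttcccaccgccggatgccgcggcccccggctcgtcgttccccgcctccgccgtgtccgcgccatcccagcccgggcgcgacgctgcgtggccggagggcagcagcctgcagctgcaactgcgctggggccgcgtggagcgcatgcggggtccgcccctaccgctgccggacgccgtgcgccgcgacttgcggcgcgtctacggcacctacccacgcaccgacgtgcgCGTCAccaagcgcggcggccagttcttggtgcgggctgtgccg
Gm3331, chr9:32789367-32789666, plus strand: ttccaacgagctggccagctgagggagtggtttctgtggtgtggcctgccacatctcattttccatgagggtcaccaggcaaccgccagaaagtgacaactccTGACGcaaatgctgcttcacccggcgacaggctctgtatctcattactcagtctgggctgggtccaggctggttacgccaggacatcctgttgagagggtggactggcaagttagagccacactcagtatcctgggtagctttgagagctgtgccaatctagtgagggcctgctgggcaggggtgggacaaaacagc
Gm35546, chr1:186587072-186587371, plus strand: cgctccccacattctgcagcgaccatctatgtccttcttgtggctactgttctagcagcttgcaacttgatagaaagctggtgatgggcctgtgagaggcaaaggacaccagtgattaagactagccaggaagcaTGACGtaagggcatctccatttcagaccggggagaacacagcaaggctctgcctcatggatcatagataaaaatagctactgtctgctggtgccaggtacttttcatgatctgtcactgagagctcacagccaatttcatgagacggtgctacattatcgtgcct
Mir1a-1hg, chr2:180385354-180385653, plus strand: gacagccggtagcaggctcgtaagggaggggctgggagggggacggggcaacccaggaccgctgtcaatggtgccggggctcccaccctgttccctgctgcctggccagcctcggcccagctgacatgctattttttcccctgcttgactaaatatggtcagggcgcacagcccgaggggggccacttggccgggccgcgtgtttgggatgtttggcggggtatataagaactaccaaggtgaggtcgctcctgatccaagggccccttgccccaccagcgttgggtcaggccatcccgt

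For contrast, 2 windows come from intergenic regions that had a peak in all 4 libraries and that hold the complete 8-base element TGACGTCA. Their peaks in CTRL replicates 1 and 2 were 138-fold and 170-fold at 1810044D09Rik and 22.2-fold and 47.7-fold at Snhg15. No CTRL-only region exceeded 13.5-fold and 19.0-fold in those libraries, so these windows differ in strength as well.
1810044D09Rik, chr6:91440737-91441036, plus strand: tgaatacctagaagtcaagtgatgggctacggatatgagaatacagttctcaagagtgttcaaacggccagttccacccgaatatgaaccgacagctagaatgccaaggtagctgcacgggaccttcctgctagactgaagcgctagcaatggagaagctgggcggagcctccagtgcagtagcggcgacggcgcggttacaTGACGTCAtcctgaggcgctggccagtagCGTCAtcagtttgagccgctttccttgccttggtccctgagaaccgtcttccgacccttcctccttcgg
Snhg15, chr11:6528711-6529010, minus strand: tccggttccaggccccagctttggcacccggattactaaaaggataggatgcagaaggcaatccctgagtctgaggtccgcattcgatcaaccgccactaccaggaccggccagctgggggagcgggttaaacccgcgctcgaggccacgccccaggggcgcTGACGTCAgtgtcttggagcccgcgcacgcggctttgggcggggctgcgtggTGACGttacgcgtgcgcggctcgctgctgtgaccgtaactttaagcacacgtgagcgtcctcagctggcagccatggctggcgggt

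In the Gm3331 window the core starts 147 bases before the annotated start, and the summits lay 157 bases before it in CTRL replicate 1 and 123 bases before it in CTRL replicate 2. In the 2310034G01Rik window the core lies 7 bases past the start, and the summits were 53 and 7 bases before the start in CTRL replicates 1 and 2. The Gm35546 window has its core 115 bases before the start, and both of its CTRL summits were closer to the start than the core, at 37 and 99 bases. The Mir1a-1hg window holds no TGACG, although its CTRL summits, 113 and 123 bases before the start, both lay inside it.

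The complete element TGACGTCA, which reads the same on both strands, was found in 0 of the 42 windows (95% Wilson interval 0 to 8.38%). It was found in 9 of 90 windows (10.0%) at the intergenic regions with a C26 peak. There, windows of neighbouring transcripts overlap, and the 9 hold 7 distinct elements in 6 of 75 regions. Over all windows at hand, which cover 27025 genes, it was in 588 of 32851 (1.79%). Over those of lncRNAs it was in 113 of 11588 (0.975%). The TGACG core, which every complete element also contains, was present in 11 of the 42 windows (26.2%, 15.3 to 41.1%), against 37 of 90 (41.1%) at regions with a C26 peak, 20.8% of all windows and 15.7% of lncRNA windows. Peak strength also differed between the sets. The weaker CTRL peak of the 38 CTRL-only regions with a window stood at a median percentile of 27.3 in its own list, and that of the 75 regions with a C26 peak at 66.4. Regions with a C26 peak were then limited to those no stronger than the strongest CTRL-only region. Of their 62 windows, 1 held the complete element and 17 held the core. The limit removed only the strongest regions and did not make the sets equally strong. The weaker CTRL peak of the 52 regions left had a median percentile of 49.9977, still above the 27.3 of the CTRL-only regions. The windows of CTRL-only regions had a median GC content of 53.5%, against 59.3% at regions with a C26 peak and 48.3% over all lncRNA windows. A window without these letters shows only that they are not in those bases, and most regions lay outside any window, so their sequence was not read.

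Facts of the whole series bear on all that follows. The 4 peak lists differed in length, with 7482 and 4051 peaks in C26 replicates 1 and 2 against 10835 and 14975 in CTRL replicates 1 and 2. The files give no read counts, so the depth behind a list is not known, and a region without a called peak was not shown to be unbound. Fold enrichment over input and the -log10 q of each peak are the authors' own values from MACS2, a peak caller, computed library by library. The C26 signal at the 454 regions has no value here, because those lists hold no peak there. With 2 libraries a group, the smallest two-sided p that an exact permutation test could give is 0.333, so no test was run. Shares below are given with 95% Wilson intervals for counting error alone.

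The count of CTRL-only regions changed when the lists were made equally long. When each list was cut to its strongest 4051 peaks, as many as the shortest list holds, 167 intergenic regions still had a peak in both CTRL libraries. Of those, 21 (12.6%) had no C26 peak, and 7 of the 21 overlapped a region of the 454. The 454 regions are described below from the lists as deposited.

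The CTRL peaks of the 454 regions were mostly of modest strength. Their median fold enrichment over input was 5.34 in CTRL replicate 1 (range 2.81 to 13.5) and 6.12 in CTRL replicate 2 (3.34 to 19.0), with median -log10 q of 6.01 and 6.10. In intergenic regions that also had a C26 peak, the medians were 7.22-fold in CTRL replicate 1 and 9.18-fold in CTRL replicate 2. Ranked within their own list by -log10 q, where the strongest peak is at 100, the CTRL-only peaks had median percentiles of 29.9 and 38.1, against 57.4 and 65.2 for regions with a C26 peak. No CTRL-only region had both of its peaks above percentile 79.0. The CTRL-only peaks were also narrower, with median widths of 381 and 418.5 bp in the 2 CTRL libraries, against 503 and 619.5 bp.

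**Figure D1:**
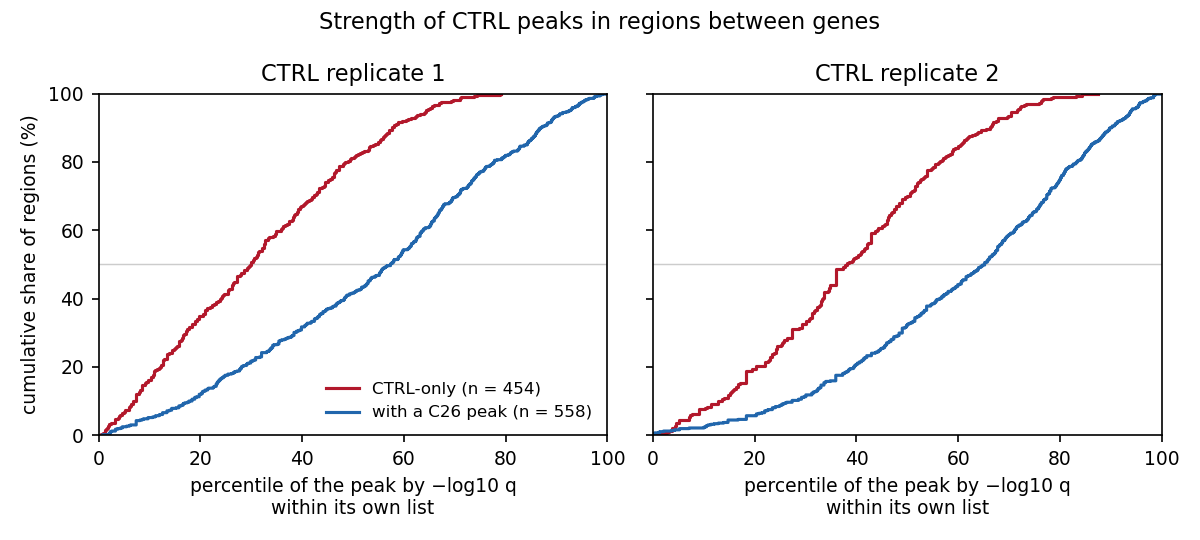
Cumulative share of intergenic regions (vertical axis, %) by the percentile of their CTRL peak within its own list, ranked by -log10 q (horizontal axis), for CTRL replicate 1 on the left and CTRL replicate 2 on the right. The 454 CTRL-only regions (red) reach 50% at percentiles 29.9 and 38.1, and the 558 regions with a C26 peak (blue) at 57.4 and 65.2.

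All 1012 intergenic regions with peaks in both CTRL libraries were also sorted by their weaker CTRL peak into 5 groups of like size. In the weakest group, 70.9% (64.3 to 76.7%) were CTRL-only. The share was 59.6%, 51.0% and 36.6% in the next 3 and 5.94% (3.43 to 10.1%), or 12 of 202 regions, in the strongest. Over all strengths, 44.9% of intergenic regions (41.8 to 47.9%) were CTRL-only, beside 44.0% of regions inside protein-coding genes and 24.5% of regions at gene ends. Of the same 1012 regions, C26 replicate 1 had a peak in 479 (47.3%) and C26 replicate 2 in 321 (31.7%), in the order of their list lengths.

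The 2 CTRL libraries placed these peaks close together but ranked them differently. The summits of a region lay a median of 71 bp apart, within 100 bp in 288 regions and over 300 bp in 25. For regions with a C26 peak the median gap was 42 bp. The part of a region covered by both CTRL peaks had a median of 63.5% of its length. Spearman's rho between the 2 CTRL percentiles was 0.36 across the 454 regions and 0.70 across the 558 with a C26 peak, as a description over regions that share the same libraries and whose percentile ranges differ. The percentile was higher in CTRL replicate 2 at 303 of the 454.

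The 15 strongest regions, ranked by the lower of their 2 CTRL percentiles, are given by their nearest genes, which were up to 147182 bp away. The first, at chr19:46348675-46349451, was 11.8-fold enriched in CTRL replicate 1 and 19.0-fold in CTRL replicate 2. It lay at the start of the lncRNA 2310034G01Rik, whose window is printed above, 7882 bp upstream of Mfsd13a, and Mfsd13a had no gene-end peak in any of the 4 libraries. A region 2761 bp upstream of Id2, at chr12:25098615-25099202, was enriched 11.0-fold and 15.9-fold in CTRL replicates 1 and 2. Id2 encodes an inhibitor of basic helix-loop-helix transcription factors, the class to which MyoD belongs. Its own ends had a peak in CTRL replicate 2 alone of the 4 libraries. A region 1856 bp upstream of Actg1, which encodes a cytoplasmic actin, and beside the lncRNA 0610009L18Rik was enriched 10.5-fold and 15.3-fold.

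The Ets1 region (chr9:32789182-32789746), within the lncRNA Gm3331 and 31674 bp from Ets1, a transcription factor gene, was stronger in CTRL replicate 1, at 13.5-fold, than in CTRL replicate 2, at 9.32-fold. The Hlf region lay 27148 bp upstream of that gene, a clock-regulated transcription factor of the PAR bZIP family, at 7.51-fold and 14.6-fold; peaks at the ends of Hlf itself were called in all 4 libraries. Dpt, which encodes dermatopontin, an extracellular matrix protein of fibroblasts, lay 25876 bp from a region enriched 9.51-fold and 11.5-fold, and had no gene-end peak in any library. Whether the nearest gene itself had a peak thus varied among the strongest regions. Klf6 and Irf2bp2, a zinc-finger transcription factor gene and a transcriptional cofactor gene, were 147182 bp and 74104 bp from their regions and had peaks at their own ends in every library. Sesn2, which encodes a stress-induced regulator of the growth kinase complex mTORC1, lay 5205 bp from a region at 7.51-fold and 8.43-fold. The other regions among these 15 were nearest Epp13, Naa10, 4930467E23Rik, Dtnbp1, Mmd2 and Krtap11-1, with enrichments between 7.08-fold and 16.3-fold over both CTRL libraries.

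**Figure D2:**
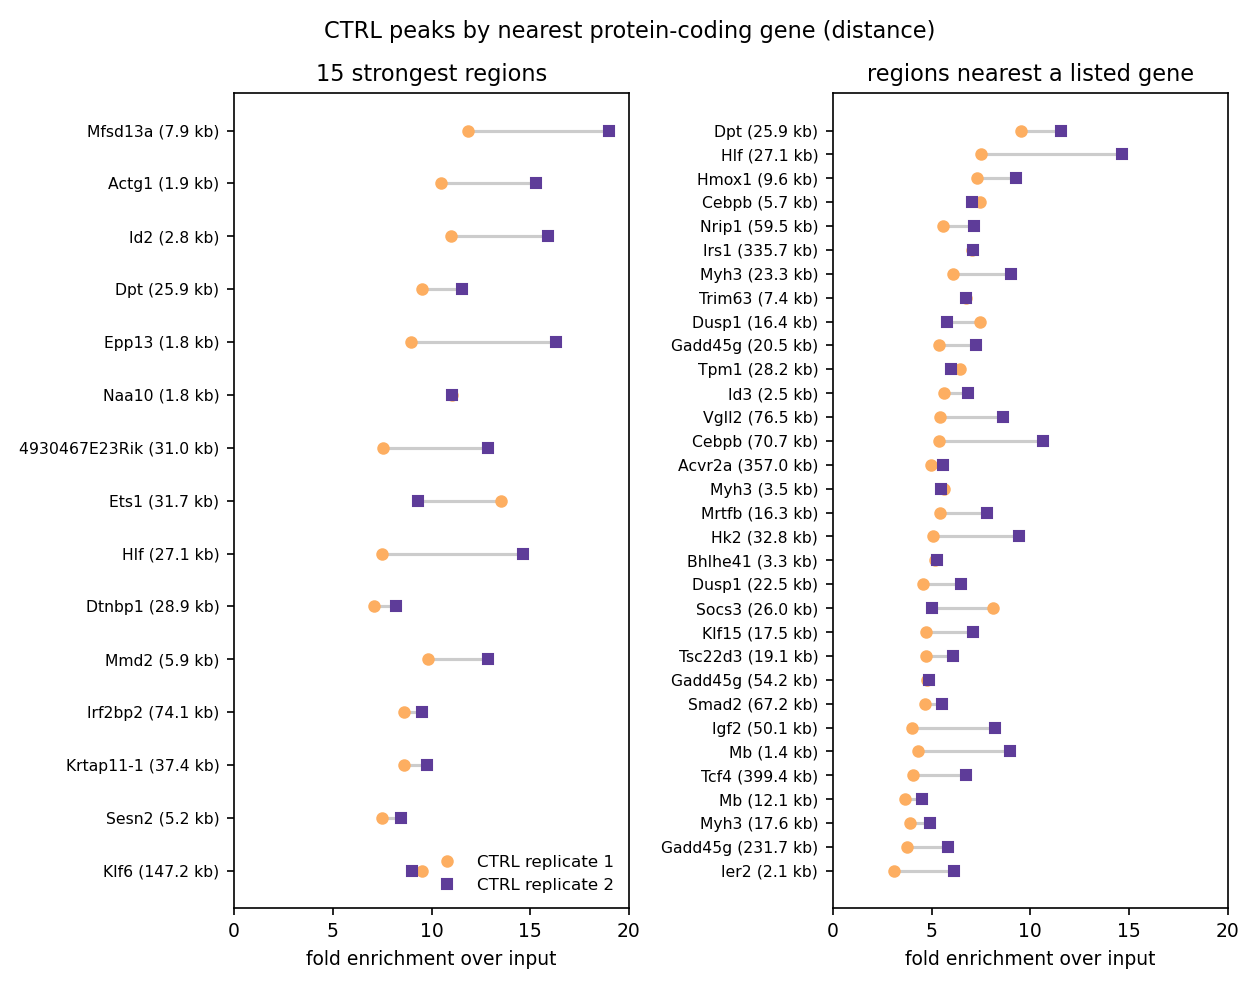
Fold enrichment over input (horizontal axis) in CTRL replicate 1 (circles) and CTRL replicate 2 (squares) for the 15 strongest CTRL-only intergenic regions (left) and for the regions whose nearest protein-coding gene is on a gene list (right), named by that gene with its distance. The C26 libraries have no peak at any of them; the values run from 3.10 at an Ier2 region to 19.0 at the Mfsd13a region.

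The regions lay at widely spread distances from protein-coding genes, all beyond the 1000 bp limit by the rule. The median distance from the CTRL replicate 2 summit to the nearest gene end was 19738 bp (interquartile range 5735 to 49876 bp), against 14313 bp for intergenic regions with a C26 peak. Between 5 and 20 kb lay 28.0% of CTRL-only regions (24.0 to 32.3%) and 35.8% of regions with a C26 peak (32.0 to 39.9%), the distance class in which the 2 sets were most unlike, with intervals that overlapped slightly. Within 5 kb lay 102 of the 454 regions (22.5%) and over 100 kb away lay 50 (11.0%). The farthest was 399365 bp from Tcf4, which encodes a partner of myogenic helix-loop-helix factors, and the next was 357000 bp from Acvr2a, which encodes a receptor for activin and myostatin. Just kept by the 1000 bp limit were regions whose nearest summit was 1028 bp from Ormdl3 and 1088 bp from Thbd. Just dropped by it were regions at 1000 bp from Sys1 and 991 bp from Socs1. The strand of the nearest gene was read from the promoter windows, which gave none for 93 regions. Of the other 361 regions, 183 (50.7%, 45.6 to 55.8%) lay upstream of that gene, so neither side was favoured beyond counting error.

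**Figure D3:**
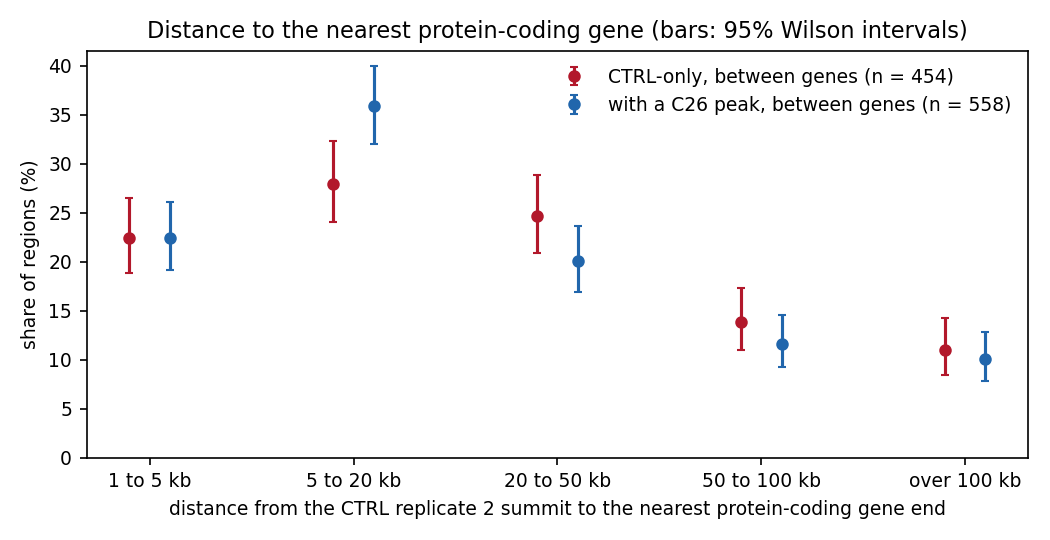
Share of regions (vertical axis, %) by distance from the CTRL replicate 2 summit to the nearest end of a protein-coding gene (horizontal axis), with 95% Wilson intervals, for 454 CTRL-only intergenic regions (red) and 558 with a C26 peak (blue). The shares are 22.5% and 22.4% from 1 to 5 kb and 28.0% and 35.8% from 5 to 20 kb.

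Many regions that are intergenic with respect to protein-coding genes touched a non-coding gene. An end of one lay within 1000 bp of the CTRL replicate 2 summit at 105 of the 454 regions (23.1%, 19.5 to 27.2%). Among intergenic regions with a C26 peak it was 145 of 558 (22.5 to 29.8%), an overlapping interval, and 7.57% (5.94 to 9.60%) for CTRL-only regions inside protein-coding genes. To compare with other intergenic positions, summits were moved by 10000 bp and kept where still intergenic. The unmoved shares cover all regions and were not computed for the kept ones alone. Of the CTRL-only summits, 28 of 349 (8.02%) had such an end nearby after moving to lower coordinates and 30 of 356 (8.43%) after moving to higher ones. For regions with a C26 peak it was 34 of 418 (8.13%) and 49 of 424 (11.6%). Counting unmoved summits within the body of a non-coding gene as well, the number was 187 of the 454 regions (41.2%). lncRNA ends accounted for 78 regions (17.2%), against 119 of 558 (21.3%) for regions with a C26 peak. Besides 2310034G01Rik and 0610009L18Rik, the strongest non-coding neighbours were the pseudogene Gm10060, the alanine tRNA gene n-TAagc8 and the lncRNA 2900024J01Rik. Snhg3 and the small nucleolar RNA Snora73a shared a region at 7.44-fold and 7.99-fold.

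tRNA genes are transcribed by RNA polymerase III, mostly from promoters within the gene. Ends of 22 tRNA genes lay within 1000 bp of 16 of the 454 regions (3.52%, 2.18 to 5.65%), against 21 of 558 (3.76%) intergenic regions with a C26 peak and 0 of 806 CTRL-only regions inside protein-coding genes, for which the interval reached 0.474%. At the moved summits it was 2 of 349 and 0 of 356 for CTRL-only regions, and 4 of 418 and 1 of 424 with a C26 peak. The strongest of the 16 regions were the one at n-TAagc8, already given above beside Sesn2, and regions at the glutamate tRNA gene n-TEttc7 (7.17-fold and 8.13-fold), the arginine tRNA gene n-TRccg1 (7.22-fold and 8.97-fold) and the serine tRNA gene n-TSgct4 (8.37-fold and 7.05-fold). A region at chr11:48856256-48857169 held 3 tRNA genes, n-TPtgg4, n-TVaac7 and n-TLaag6, at 4.19-fold and 7.34-fold. Among these 22 genes, a C26 summit lay within 1000 bp of n-TVcac9 and n-TRacg5 alone, in C26 replicate 1, from a peak 224 bp from the edge of their shared region. Over all 408 annotated tRNA genes, the number with a peak summit within 1000 bp was 70 for C26 replicate 1, 42 for C26 replicate 2, 114 for CTRL replicate 1 and 123 for CTRL replicate 2. Of these, 97 had a summit in both CTRL libraries, 35 in all 4 and 29 in both CTRL libraries alone, while 0 had one in both C26 libraries alone. The libraries fell in the order of their list lengths. Copies of tRNA genes are nearly identical, so reads inside them can be assigned to the wrong copy.

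**Figure D4:**
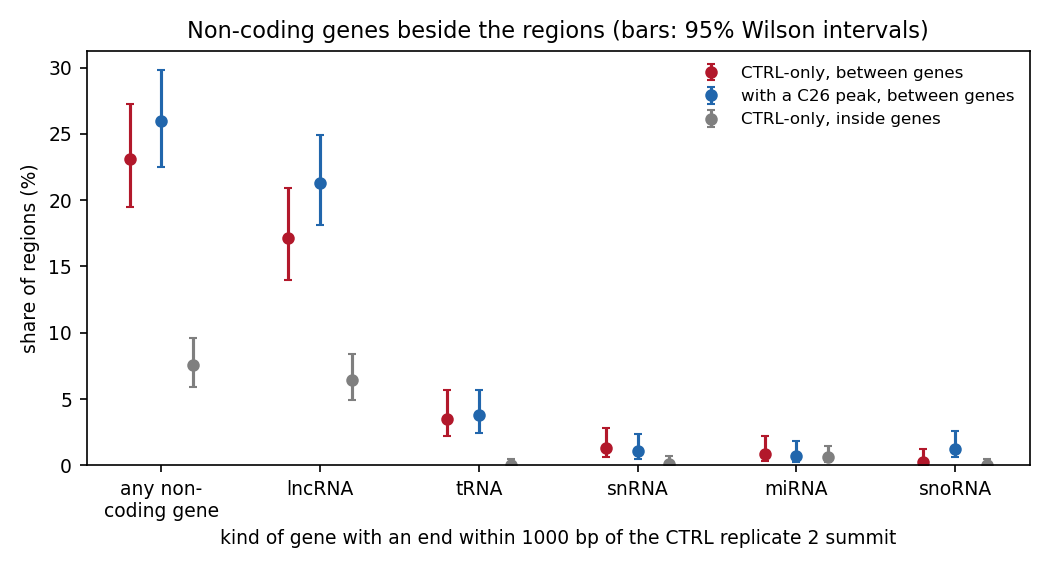
Share of regions (vertical axis, %) whose CTRL replicate 2 summit lies within 1000 bp of an end of each kind of non-coding gene (horizontal axis), with 95% Wilson intervals, for CTRL-only intergenic regions (red), intergenic regions with a C26 peak (blue) and CTRL-only regions inside protein-coding genes (gray). Intergenic regions of either kind had a non-coding gene beside them in 105 of 454 and 145 of 558 cases, and those inside genes in 7.57%.

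Regions near microRNA genes were singled out after their values had been seen. Within 20 kb of 22 of the regions lay 25 microRNA genes, a count not made for other intergenic regions. Within 1000 bp of the CTRL replicate 2 summit, a microRNA gene end lay at 4 of the 454 regions (0.881%). Among the 558 with a C26 peak it was also 4 (0.717%). Of all annotated microRNA genes, 72 had a summit within 1000 bp in both CTRL libraries, and 15 of those had none in C26. Both ends of the locus of Mir1a-1 and Mir133a-2, which encode microRNAs abundant in striated muscle, had a CTRL-only region. The first, at the start of the host transcript Mir1a-1hg (chr2:180385103-180385776), ended 3272 bp before the Mir1a-1 hairpin and was enriched 7.91-fold and 7.34-fold in CTRL replicates 1 and 2. The second (chr2:180400019-180400837) lay 1537 bp from the Mir133a-2 hairpin and was enriched 5.58-fold and 6.69-fold. The strongest region of all lay 5805 bp from the hairpin of Mir146b, a microRNA known from inflammatory signaling. A wide region (chr8:84203246-84204530; 4.18-fold and 5.52-fold) lay 3988 bp from the cluster of Mir23a, Mir27a and Mir24-2, of which miR-23a is known for targeting the mRNAs of muscle atrophy ubiquitin ligases. Other hairpins lay closer: Mir7671 was overlapped by a region, and Mir760, Mir6516 and Mir7b were 14, 487 and 581 bp from one. Of the hairpins near the strongest region and of the Mir23a cluster, 4 mature products from RefSeq (GRCm38.p6) are shown as examples, with the seed, bases 2 to 8, in capitals; no seed is shared among them.
mmu-miR-146b-5p, chr19:46342790-46342811, plus strand: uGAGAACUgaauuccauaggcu
mmu-miR-23a-3p, chr8:84208563-84208583, plus strand: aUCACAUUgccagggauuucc
mmu-miR-27a-3p, chr8:84208727-84208747, plus strand: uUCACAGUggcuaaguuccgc
mmu-miR-24-3p, chr8:84208875-84208896, plus strand: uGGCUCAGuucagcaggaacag

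The nearest protein-coding genes of the regions often had a phospho-CREB1 peak of their own. For 218 of the 454 regions the nearest gene had a summit within 1000 bp of either of its ends, here called a gene-end peak, in CTRL replicate 1 and in CTRL replicate 2 alike (48.0%, 43.5 to 52.6%), against 32.2% of all 21887 protein-coding genes. At intergenic regions with a C26 peak the share was 54.3% (50.2 to 58.4%). In C26 replicates 1 and 2, the nearest gene of a CTRL-only region had a gene-end peak in 37.7% and 19.6% of cases, against 26.1% and 14.0% of all genes. In CTRL replicates 1 and 2 the shares were 50.7% and 61.2%, against 33.9% and 40.1% of all genes. At intergenic regions with a C26 peak the shares were 45.9% and 28.5% in C26 replicates 1 and 2. In the CTRL replicates they were 56.6% and 63.3%. At either kind of intergenic region, the nearest gene thus carried a gene-end peak more often than genes at large in each of the 4 libraries.

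Of those 218 regions, 161 (73.9%, 67.6 to 79.2%) had a nearest gene with a gene-end peak in at least 1 C26 library too. Over all protein-coding genes with gene-end peaks in CTRL replicates 1 and 2, 5418 of 7037 (77.0%) had one in C26 muscle, a value within that interval. The corresponding share for regions with a C26 peak was 248 of 303 (81.8%, 77.1 to 85.8%). Gene-end peaks in all 4 libraries were found at the nearest gene of 78 regions (17.2%), against 12.7% of all genes and 26.7% at regions with a C26 peak. At 57 regions the nearest gene itself was CTRL-only at its ends (12.6%, 9.82 to 15.9%), against 7.4% of all genes and 9.86% at regions with a C26 peak. Because a gene can be nearest to several regions, the 410 different nearest genes were also counted once each: 46.6% had such peaks in CTRL replicates 1 and 2, 16.3% in all 4 libraries and 12.4% in the CTRL pair alone. No gene-end peak in any library was found at the nearest gene of 160 regions (35.2%).

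**Figure D5:**
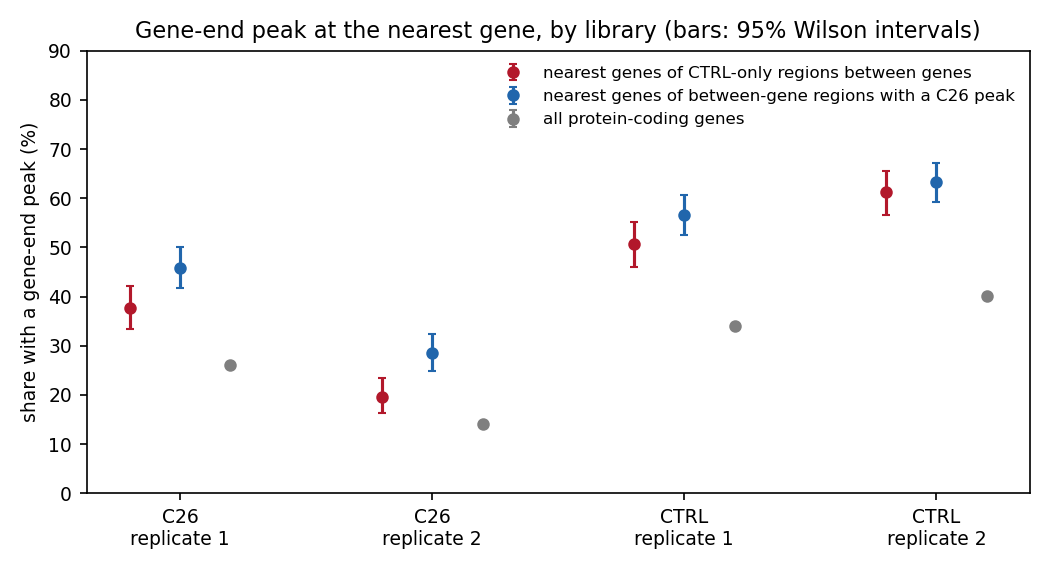
Share of regions whose nearest protein-coding gene has a gene-end peak (vertical axis, %), in each of the 4 libraries (horizontal axis), with 95% Wilson intervals, for CTRL-only intergenic regions (red) and intergenic regions with a C26 peak (blue), beside the share of all protein-coding genes (gray). CTRL-only regions lie at 37.7% and 19.6% in the C26 libraries and at 50.7% and 61.2% in the CTRL libraries, each above all genes.

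The gene lists below are set beside 2 shares: 410 of all 21887 protein-coding genes (1.87%) were nearest to a CTRL-only region, and 454 of the 1012 intergenic regions with peaks in both CTRL libraries (44.9%) were CTRL-only. The lists were chosen with earlier results of these data known, so a list count above either share is a description and no test of enrichment. Among genes of muscle wasting and growth, 7 of 39 annotated genes were nearest to a CTRL-only region, each to 1. Of the 17 intergenic regions with CTRL peaks in both libraries nearest that list, 7 were CTRL-only, close to the share over all 1012. The strongest of these lay 335670 bp from Irs1, an adaptor of the insulin receptor, at 7.02-fold in CTRL replicate 1 and 7.10-fold in CTRL replicate 2. A region 7374 bp upstream of Trim63, which encodes the muscle atrophy ubiquitin ligase MuRF1, was enriched 6.73-fold in each CTRL library. The ends of Trim63 itself had peaks in both C26 libraries and in CTRL replicate 2, so phospho-CREB1 peaks were called at the gene in C26 muscle and not at its upstream region. Acvr2a, given above as a distant neighbour, had a region at 4.97-fold and 5.57-fold. The others were nearest Socs3, Klf15, Smad2 and Igf2, of which Klf15, a transcription factor induced by glucocorticoids, and Igf2, a growth factor, had no gene-end peak in any library.

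On the contractile list, which also holds Mb although it encodes no contractile protein, 3 of 44 genes were nearest to CTRL-only regions. Those regions were 6 of the 10 intergenic regions with CTRL peaks in both libraries nearest that list. Myh3, which encodes embryonic myosin heavy chain, had 3 such regions at 3509, 17641 and 23268 bp downstream, in the cluster of skeletal myosin genes, and no gene-end peak of its own in any library. The strongest of them was enriched 6.09-fold and 9.04-fold, and the one at 3509 bp was enriched 5.62-fold and 5.45-fold. The middle one, beside the lncRNA 2310065F04Rik, was weaker, at 3.88-fold and 4.90-fold, and a C26 peak lay 469 bp from its edge. Mb, which encodes myoglobin and was also the only muscle fibre marker with a region, had 2, at 1417 bp (4.29-fold and 8.98-fold) and at 12128 bp (3.63-fold and 4.52-fold). The ends of Mb had peaks in both CTRL libraries and in neither C26 library, so here the gene and both regions shared the pattern that selected the regions. Tpm1, which encodes a tropomyosin, was 28158 bp from a region at 6.43-fold and 5.99-fold.

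Regulators of muscle identity with a nearest region were Vgll2 (5.41-fold and 8.60-fold), a cofactor of TEAD factors, Mrtfb (5.42-fold and 7.83-fold), a coactivator of serum response factor, and Tcf4 (4.06-fold and 6.73-fold), 3 of 34 listed genes. They took 3 of the 12 intergenic regions with peaks in both CTRL libraries nearest that list.

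Established CREB1 target genes were nearest to 6 CTRL-only regions, out of 22 intergenic regions with peaks in both CTRL libraries nearest those genes. Cebpb, which encodes a bZIP transcription factor, had one 5693 bp away (7.44-fold and 7.03-fold) and one 70660 bp away (5.36-fold and 10.7-fold), and its own ends had peaks in all 4 libraries. Dusp1, a phosphatase of MAP kinases, had one on each side at 16351 bp (7.44-fold and 5.77-fold) and 22468 bp (4.55-fold and 6.51-fold), with gene-end peaks in C26 replicate 1 and both CTRL libraries. Id3, a relative of Id2, lay 2517 bp from a region enriched 5.64-fold and 6.85-fold, and its ends had peaks in both CTRL libraries alone. Ier2, an immediate early gene, had the weakest, at 3.10-fold and 6.11-fold. None of the 44 genes of cAMP and CREB signaling was nearest to a CTRL-only region, against 2 intergenic regions with peaks in both CTRL libraries.

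Metabolic regulators had 2 regions, at Nrip1, a nuclear receptor corepressor (5.57-fold and 7.16-fold), and Hk2, the muscle hexokinase gene (5.07-fold and 9.44-fold), of 4 intergenic regions with peaks in both CTRL libraries. Clock genes had 2 of 7, at Hlf and at Bhlhe41, a clock repressor (5.18-fold and 5.28-fold). Genes of inflammation and stress had 5 of 12. Of these, Hmox1, heme oxygenase 1, had the strongest region (7.32-fold and 9.26-fold), Gadd45g, a growth arrest gene, had 3 between 20451 and 231726 bp away, and Tsc22d3, a glucocorticoid-induced gene, had 1 (4.74-fold and 6.08-fold). Endothelial, leukocyte, adipocyte and Schwann cell markers, 31 genes together, had no intergenic region with peaks in both CTRL libraries nearest to them, and of the 10 fibroblast markers only Dpt did. In all, 32 of the 454 regions were nearest a listed gene, against 86 of the 1012 intergenic regions from which they were drawn. Peaks near a marker gene do not measure the cell types in the muscle, and the part of cell composition in the missing C26 peaks was not tested.

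Most regions stood alone. Another region of any kind lay within 10 kb of 205 (45.2%, 40.6 to 49.8%), against 322 of 558 (57.7%, 53.6 to 61.7%) for intergenic regions with a C26 peak. A C26 peak lay within 10 kb of 116 (25.6%) and within 5 kb of 73 (16.1%), with a median distance to the nearest one of 29702 bp. The closest was 113 bp from the edge of a region near Pomgnt2, and at Jdp2, which encodes a bZIP factor, the gap was 148 bp, so at such places the CTRL and C26 calls differ by little in position. Only 34 regions (7.49%) had another CTRL-only region within 10 kb, all in pairs. Such pairs were found near Eef2, a translation elongation factor gene, within 2214 bp, and near Creb3l1, which encodes a CREB-related factor of the endoplasmic reticulum, within 4453 bp. Irf2bpl was the nearest gene of 4 regions, and Ephb1, Gadd45g, Myh3, Tnrc6c and Tomm20 of 3 each. On single autosomes between 32.1% and 57.6% of the intergenic regions with peaks in both CTRL libraries were CTRL-only, with intervals that all included the genome-wide 44.9%.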

How the data were processed

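Phospho-CREB1 ChIP-seq of mouse muscle was deposited as 1 list of narrow peaks for each of 4 libraries. The submitters' processing notes list MACS2 2.1.4 among the tools, beside SAMtools 1.6, Bowtie2 2.3.5.1, FastQC 0.11.2 and Picard, and give the genome build as mm10 (GRCm38). Each library was paired with 1 input library, and peaks passed a q-value of 0.05, per the labels. The deposited fold enrichment is a linear ratio to input, and the deposited -log10 q-value is MACS2's; neither was rescaled. No column was left unused for want of a sample, and the signal tracks were not used here.

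Peaks of all lists were merged at 1 bp overlap (Python 3.11.15, pandas 2.3.3, SciPy 1.17.1, NumPy 2.4.6) and placed against the spans of 21887 protein-coding genes in the RefSeq table for GRCm38.p6. A region's strength in a library is the percentile of its peak by -log10 q within that list. The merging and placing steps were tested on simulated peaks. Motifs were searched in RefSeq promoter windows; the genome sequence was not used here, so motifs at the summits themselves were not searched.

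Named were the 15 regions with the highest lower percentile of the 2 CTRL lists, the 5 strongest beside a non-coding gene, the 2 farthest from a gene, the 2 on each side of the 1000 bp limit and up to 3 for each gene list. Others, among them those near microRNA genes and in pairs, were added after their values were seen, as was the search of promoter windows. The regions and the gene lists were chosen with earlier results of these data known. The labels do not say whether libraries came from separate animals.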

Additional observations from a re-analysis of the deposited data

How the results depend on the processing

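The number of CTRL-only intergenic regions and their share of intergenic regions with CTRL peaks stayed within 351 to 476 and 44.3% to 45.4% with gene ends set at distances from 500 to 5000 bp, 100 bp of overlap to merge, a -log10 q of at least 2, or the CTRL replicate 1 summit. With lists cut to the length of the shortest (4051 peaks) they were 21 and 12.6%. This cut makes the lists equally long and also removes weak peaks, and which of these lowered the values was not tested. Against all annotated genes, non-coding ones included, 267 regions were left, at 45.6%. Leaving out 1 library at a time gave 533 to 1694 regions and shares of 52.7% to 69.6%, as each omission drops a requirement: 1694 (69.6%) without CTRL replicate 1, 906 (58.5%) without CTRL replicate 2, 692 (68.2%) without C26 replicate 1 and 533 (52.7%) without C26 replicate 2. The median distance to a gene was 19681 bp from the CTRL replicate 1 summit and 19630 bp over the 429 regions with -log10 q of at least 2 in both CTRL lists. The median percentile was 29.9 in CTRL replicate 1. With gene ends at 5000 bp, 67.8% of the 454 regions had a nearest gene with end peaks in both CTRL libraries, but 102 regions lie within 5 kb, where their own peaks count; over the other 352, a subset chosen after seeing the data, it was 58.5%, against 38.8% of all genes. Shares with a non-coding gene or a C26 peak nearby did not move beyond their intervals. Other windows and motifs at the summits themselves were not run, since no genome sequence was used. No paired analysis was possible because no result comes from a test between samples. Read depth is not in the files and limits which weak peaks could be called.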
